A study of Mus musculus with 36 samples.

Results

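The kidney of male C57BL/6NCrl mice was compared between 10 and 8 weeks of age. The comparison used the 4 kidney libraries labelled 10 weeks and the 4 labelled 8 weeks, 8 of the 36 libraries of the series, which also holds heart and liver and a group of 12 weeks for each tissue. Of the 78239 gene rows in the files, 17350 had a mean count of at least 10 read pairs at 8 or at 10 weeks and were tested. All animals were males of this inbred substrain, bought at 6 weeks, kept 2 or 3 to a cage and killed under ketamine and xylazine, so that the groups differ by label in age alone. The labels give neither the hour of the day nor the cage of an animal, and these cannot be told apart from age. Levels are given as CPM, the read pairs counted on a gene scaled to library size in the usual way, and changes as log2 fold change of 10 against 8 weeks with its standard error (SE) from edgeR's fit.

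Most of the kidney cortex is proximal tubule, which takes back sodium, bicarbonate, sugars, amino acids and phosphate from the filtrate and covers the cost with mitochondrial oxidation. The collecting duct runs through cortex, medulla and papilla and sets the final water content of the urine, and urothelium lines the papilla and the renal pelvis. Whole-kidney RNA holds all of these in proportions that depend on the animal and on how the organ was cut. Fewer cells of a type and less RNA per cell cannot be told apart in such samples.

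The 8 libraries held 21323021 to 32129310 counted pairs. Kidney markers were present at high level in each of them: the summed CPM of 15 proximal tubule genes of segments 1 and 2 lay between 21360 and 22800 at 8 weeks and between 19700 and 21760 at 10 weeks. Defining genes of the adrenal gland were absent or nearly so, with Cyp11b2, Cyp21a1, Th, Chga and Pnmt at 0 in all 8 libraries. The skeletal muscle list summed to 0.869 to 1.22 CPM. On the first principal component of these 8 libraries, which carried 26.9% of the variance, the 8-week libraries lay between -28.6 and -10.5 and the 10-week libraries between 7.38 and 29.2. Library 2 of 8 weeks stood apart by brown fat transcripts: it held 21.8 CPM of Ucp1, the uncoupling protein of brown fat, while the other 8-week libraries held 0.0459 to 0.129 and the 10-week libraries 0.603 to 4.68. Library 1 of 10 weeks stood apart by Cyp4a14, a fatty acid hydroxylase, with 545 CPM against 12.0 to 24.02 in the other 10-week libraries. Counts without these libraries are given beside the gene lists below.

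Age 10 weeks differed from age 8 weeks by more genes higher than lower, with modest changes in most of them. Past an adjusted p of 0.05 (edgeR's quasi-likelihood test, Benjamini-Hochberg adjustment over all 17350 genes) were 130 genes higher at 10 weeks, 0.749% of those tested, and 58 lower, 0.334%, together 1.08%. Their median log2 fold changes were 0.46 and -0.45. A call that also asked for an absolute log2 fold change over 1 left 20 genes higher (0.115%) and 6 lower (0.0346%), and over all genes tested the median log2 fold change was 0.0023. The 2 ages did not overlap for 129 of the 130 higher and 56 of the 58 lower genes, while 5.11% and 4.11% of all genes tested were without overlap in the respective direction. The separation of the 130 and 58 genes is no added evidence, since the test that picked them used the same libraries. The counts depended on single libraries. Without library 2 of 8 weeks 60 genes were higher and 21 lower past the adjusted p, without library 1 of 10 weeks 41 and 12, and without library 3 of 10 weeks 21 and 2.

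**Figure D1:**
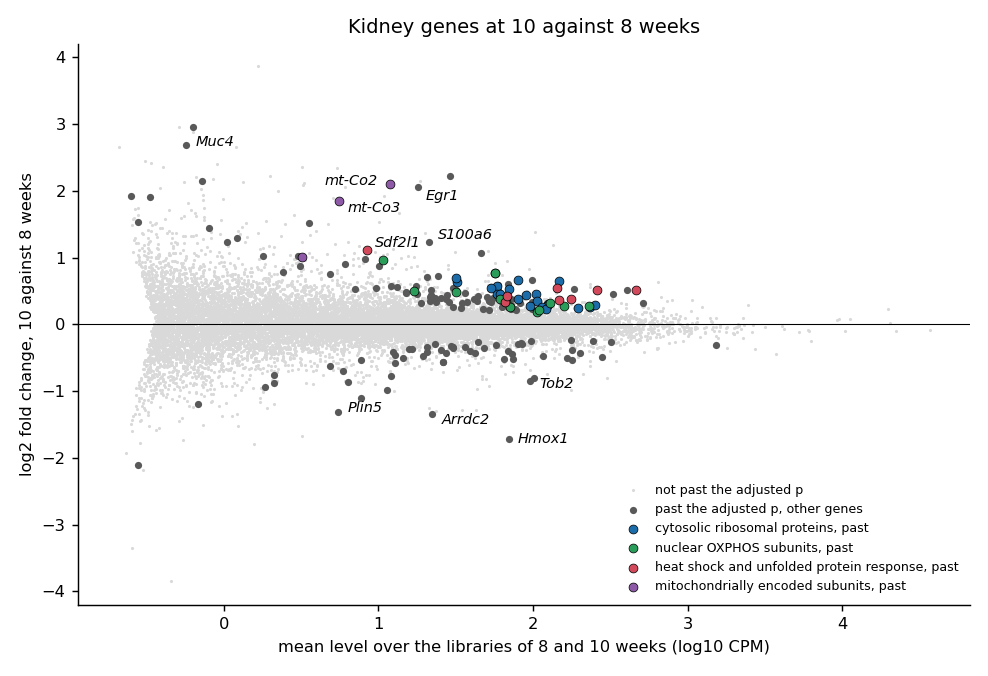
Each point is 1 of the 17350 genes tested, with its mean level over the 8 libraries (log10 CPM) on the x axis and its log2 fold change at 10 against 8 weeks on the y axis. Coloured and dark points passed the adjusted p of edgeR's test, and the blue ribosomal protein genes, the green nuclear subunits of oxidative phosphorylation the red chaperones and the purple mitochondrially encoded genes that passed lie above 0.

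The ribosome supplied the largest group of risen genes. Of the 75 cytosolic ribosomal protein genes, which encode the protein part of the ribosome, all 75 were tested, 22 passed the adjusted p as higher and 0 as lower. Higher by sign were 70 of 75, against 50.5% of all genes tested, and the median log2 fold change was 0.16. Rpl39 (ENSMUSG00000079641, chrX:36345092-36349130 on GRCm39) had 58.6, 61.9, 60.8 and 64.2 CPM in the 8-week libraries and 105, 98.4, 100 and 86.4 CPM in the 10-week libraries. Every 10-week library was thus above every 8-week library, and the log2 fold change was 0.67 ± 0.062 (SE), with an edgeR adjusted p of 0.000347. Rps27 (ENSMUSG00000090733, chr3:90119819-90120977) had 108, 117, 122 and 113.2 CPM at 8 weeks and 184, 202, 186 and 150 CPM at 10 weeks. Again the ages were separate, with a log2 fold change of 0.65 ± 0.075 (SE, edgeR adjusted p = 0.00132). For Rps29 the 8-week libraries held 39.96 to 44.9 CPM and the 10-week libraries 61.9 to 79.4 CPM, a log2 fold change of 0.76 ± 0.092 (SE, edgeR adjusted p = 0.00199). Rpl31 (0.69), Rpl38 (0.58), Rpl30 (0.54) and Rps21 (0.52) also rose, and the smallest change past the adjusted p was 0.23 for Rpl27. Rpl41, a ribosomal protein gene outside the list, rose by 0.53 ± 0.071 (SE, edgeR adjusted p = 0.0047). The count of 22 was 12, 6 and 10 without library 2, 3 or 4 of 8 weeks and 9 and 6 without library 1 or 3 of 10 weeks, while the median of the list stayed between 0.13 and 0.19 in every setting tried.

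At 12 weeks the same genes were measured in 4 further libraries. Rpl39 had 63.3 ± 3.13 CPM, Rps27 112.8 ± 2.35 CPM and Rps29 42.1 CPM as mean and, for the first pair, SD over 4 libraries, beside 8-week means of 61.4, 115 and 42.2 CPM. The median of the 75 genes was 0.16 at 10 against 8 weeks in kidney, 0.0022 at 12 against 8 weeks in kidney, and at 10 against 8 weeks -0.01 in heart and 0.04 in liver. These contrasts are given side by side because the kidney pair shares its 8-week libraries. For 0 of the 75 genes did the change differ between kidney and heart or between kidney and liver past the adjusted p, as tested by the tissue by age term of 1 edgeR fit over the whole series.

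Some nuclear subunits of oxidative phosphorylation also rose. The nuclear complex I list, whose products pass electrons from NADH into the respiratory chain, had 7 of 37 members past the adjusted p as higher and 0 as lower, and its median change was 0.14 (log2). The count was 3, 1, 3 and 1 without library 1, 2, 3 or 4 of 8 weeks, 1, 1 and 4 without library 1, 3 or 4 of 10 weeks, and 4 without library 2 of 12 weeks. Ndufc1 held 50.8, 51.5, 55.9 and 52.3 CPM at 8 weeks and 73.4, 68.5, 66.9 and 66.1 CPM at 10 weeks, without overlap and with a log2 fold change of 0.38 ± 0.051 (SE, edgeR adjusted p = 0.0047). Ndufa11 (0.50), Ndufb1 (0.49) and Ndufb4 (0.34) rose as well, all of them accessory subunits. The core subunits Ndufs1 and Ndufv1 had log2 fold changes of -0.01 and -0.05 and did not pass. Among nuclear subunits of complexes II to V, 5 of 38 rose, 0 fell, and the median was 0.07. The count was 2, 2 and 3 without library 2, 3 or 4 of 8 weeks, 3 without library 1 of 10 weeks and 0 without library 3 of 10 weeks. Atp5me (ENSMUSG00000050856, chr5:108581110-108582949), a small membrane subunit of ATP synthase, held 31.4, 44.2, 48.5 and 43.1 CPM at 8 weeks and 79.6, 71.9, 75.4 and 59.7 CPM at 10 weeks. The ages were again separate, and the change was 0.77 ± 0.15 (log2, SE, edgeR adjusted p = 0.0295). Atp5po, of the stalk of the same enzyme, rose by 0.97 ± 0.15 (SE, edgeR adjusted p = 0.0136), and Atp5f1e, Cox7c and Cox7a2 by 0.32, 0.28 and 0.28. Of 20 enzymes of the tricarboxylic acid cycle, the matrix pathway that feeds the chain, 0 passed in edgeR's test, 1 was higher and 1 lower at an unadjusted p under 0.05, and the median was -0.01.

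**Figure D2:**
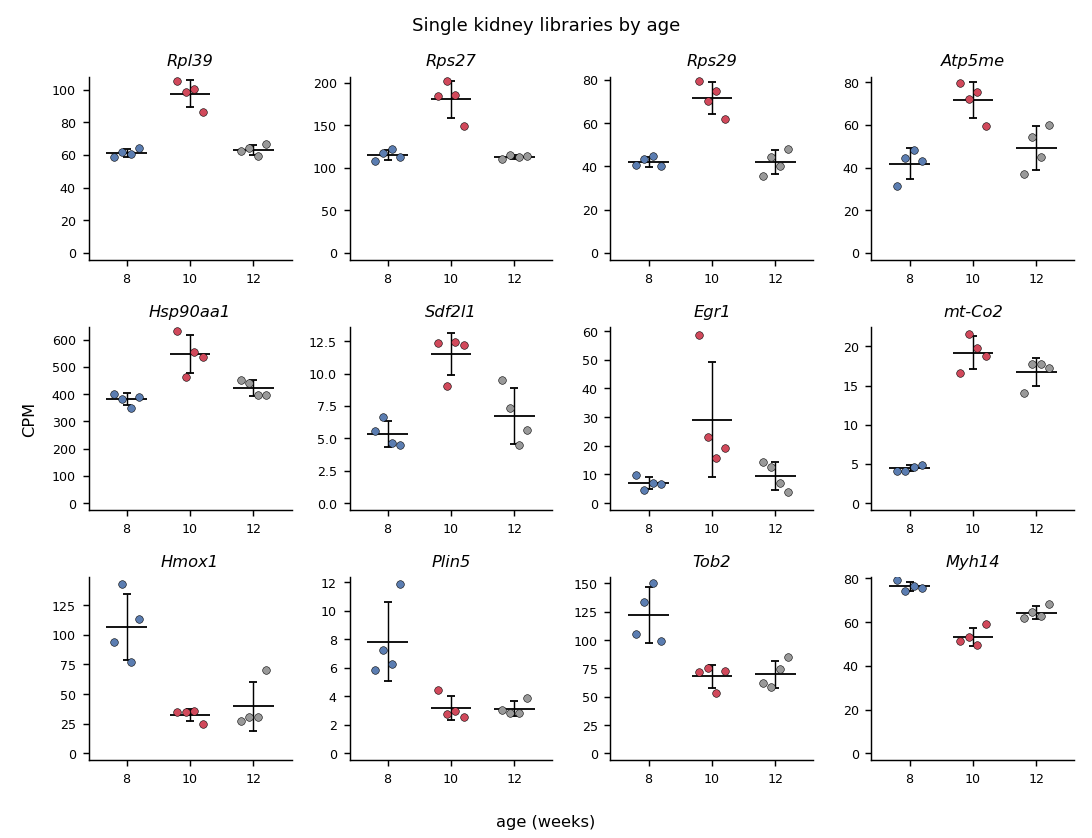
Level in CPM of 12 genes in each kidney library of 8, 10 and 12 weeks (4 points per age, the line and bar give mean and SD). For the ribosomal genes Rpl39, Rps27 and Rps29 the 10-week libraries sit above all libraries of both other ages, while mt-Co2 is high at 10 and 12 weeks and Hmox1 is high at 8 weeks.

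The risen genes had shorter transcripts than the genes tested as a whole, by median. The canonical transcript of the 130 higher genes had a median of 1255 bases, that of the 58 lower genes 3676 bases and that of all tested genes 2958 bases. Under 1000 bases were 40.8% of the higher, 5.17% of the lower and 12.6% of all tested genes. Protein-coding genes outside the ribosomal list followed the same order, from a median log2 fold change of 0.20 for the 22 genes of up to 500 bases through 0.07 for those of 750 to 1000 bases to -0.02 for those over 5000 bases. Ribosomal protein genes of 1000 to 1500 bases had a median of 0.16, beside 0.04 for other genes of that length. These are lengths of the canonical transcript, such as 1889 bases for Rpl39 and 4122 bases for Rpl31. Which transcripts were expressed was not measured, so genes of the same length group need not match in expressed length. The share of counted pairs on genes with transcripts under 1000 bases was 5.92% to 6.44% at 8 weeks, 6.63% to 7.11% at 10 weeks and 6.01% to 6.58% at 12 weeks, and 10 against 8 weeks gave p = 0.0286 (exact permutation test, two-sided, n = 4 per age), the smallest that 4 against 4 allows. Unmapped pairs were 1.11% to 1.34% of a library at 8 weeks, 1.39% to 1.54% at 10 weeks and 1.27% to 1.535% at 12 weeks. The 10-week share was again above the 8-week share (exact permutation p = 0.0286, two-sided, n = 4 per age). Count-weighted mean log10 transcript length was 3.472 to 3.481 at 8 weeks and 3.47 to 3.473 at 10 weeks. These ranges overlapped (exact permutation p = 0.0857, two-sided, n = 4 per age). The shares of pairs counted, in no feature or aligned to several places also overlapped (exact permutation test, two-sided, n = 4 per age). Their exact permutation p were 0.229, 0.943 and 0.286. None of these p-values was adjusted for the number of measures tested. With a smooth trend on transcript length removed from each library, 69 genes were higher and 34 lower past the adjusted p, among them 11 ribosomal protein genes, 2 of nuclear complex I and 1 of complexes II to V. The medians of these lists were then 0.14, 0.12 and 0.04, with the same limit from canonical lengths. What moved the share of short transcripts was not tested.

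**Figure D3:**
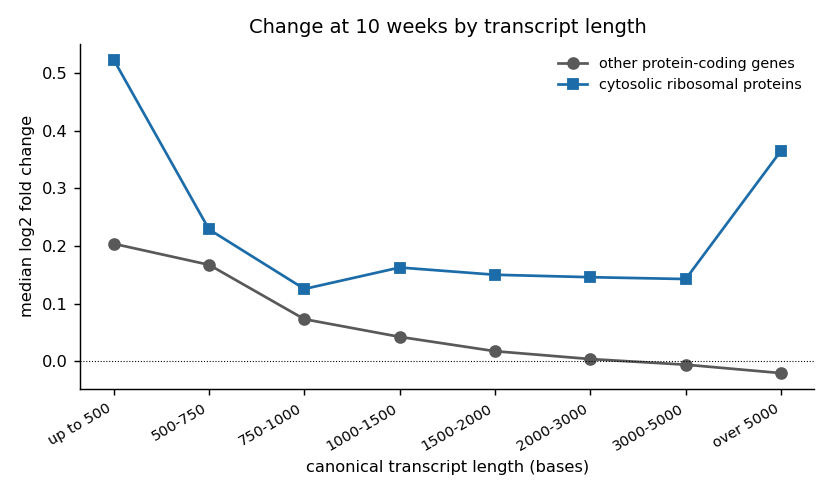
Median log2 fold change at 10 against 8 weeks (y axis) by length of the canonical transcript in bases (x axis), for cytosolic ribosomal protein genes (squares) and all other protein-coding genes tested (circles). Both are highest for the shortest transcripts, at 0.52 and 0.20, and the ribosomal points over 2000 bases rest on 3, 7 and 2 genes.

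Some chaperones of the cytosol and of the endoplasmic reticulum rose, and most of the others were higher by sign without passing. Heat shock proteins hold client proteins in a foldable state, and the unfolded protein response raises the folding capacity of the endoplasmic reticulum. Of 13 heat shock genes, 13 were higher by sign, 4 passed the adjusted p, and the median was 0.36. The count was 2, 1 and 2 without library 2, 3 or 4 of 8 weeks 2 and 1 without library 1 or 3 of 10 weeks and 2 without library 2 or 3 of 12 weeks, and Hspe1 alone of the 4 passed in all 23 settings tried. Hsp90aa1 (ENSMUSG00000021270, chr12:110656842-110669166), the inducible cytosolic Hsp90, held 402, 384, 350 and 390 CPM at 8 weeks and 633, 465, 556 and 536 CPM at 10 weeks. These ranges did not overlap, and the change was 0.52 ± 0.083 (log2, SE, edgeR adjusted p = 0.0136). Hspe1, the mitochondrial co-chaperonin, rose by 0.36 ± 0.049 (SE, edgeR adjusted p = 0.00501), Hspa4l by 0.43 and Chordc1 by 0.34. Hspa1a and Hspa1b, the stress-induced Hsp70 genes, had larger changes of 0.90 and 1.10 that did not pass (edgeR adjusted p = 0.1 and 0.082), with overlapping libraries. Chosen after their values were seen, Dnaja1 (0.46), Stip1 (0.39) and Cacybp (0.35), which work with Hsp70 and Hsp90, also passed.

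Of the 20 genes of the unfolded protein response, 4 passed as higher and 0 as lower, 15 were higher at an unadjusted p under 0.05 (9.10% of all genes tested were), and the median was 0.39. Sdf2l1 (ENSMUSG00000022769, chr16:16948002-16950252), a partner of the chaperone BiP, held 5.602, 6.64, 4.63 and 4.46 CPM at 8 weeks and 12.4, 9.05, 12.5 and 12.2 CPM at 10 weeks. It rose 2.17-fold without overlap, a log2 fold change of 1.12 ± 0.20 (SE, edgeR adjusted p = 0.0214). Hsp90b1, the Hsp90 of the endoplasmic reticulum, held 199 to 231 CPM at 8 weeks and 278 to 321 CPM at 10 weeks, a log2 fold change of 0.51 ± 0.087 (SE, edgeR adjusted p = 0.0168). Hyou1 (0.54), a large Hsp70 relative, and Pdia6 (0.38), a disulfide isomerase, were the others. Hspa5, which encodes BiP, held 447 to 584 CPM at 8 weeks and 679 to 861 CPM at 10 weeks, also without overlap, with a log2 fold change of 0.63 ± 0.15 (SE) and an edgeR adjusted p of 0.0569. Ddit3, a transcription factor of the response, and Herpud1, of the disposal of misfolded proteins, had log2 fold changes of -0.10 and -0.12 and did not pass. Genes of protein entry into the endoplasmic reticulum, picked after their values were seen, showed the same direction: Sec61g (0.52), Sec61b (0.39), Ostc (0.42), Tmem258 (0.35) and Spcs2 (0.27) passed. Of the 20 genes of the response 0 passed without library 1 or 3 of 10 weeks or without library 3 or 4 of 8 weeks, and 2 passed without library 1 of 8 weeks, library 4 of 10 weeks or library 2 or 4 of 12 weeks, and 8 without library 1 or 3 of 12 weeks.

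Promoters of 3 risen members are shown for the upstream element known from such genes, taken from RefSeq on build GRCm38.p6 as the 250 bases before the annotated start. Capitals mark the CCAAT and CCACG ends of an endoplasmic reticulum stress element, CCAAT followed after 9 bases by CCACG on either strand, a motif searched after the values were seen. Where no such element was found, capitals mark CCAAT boxes on either strand.
Hsp90b1, chr10:86705445-86705694, minus strand: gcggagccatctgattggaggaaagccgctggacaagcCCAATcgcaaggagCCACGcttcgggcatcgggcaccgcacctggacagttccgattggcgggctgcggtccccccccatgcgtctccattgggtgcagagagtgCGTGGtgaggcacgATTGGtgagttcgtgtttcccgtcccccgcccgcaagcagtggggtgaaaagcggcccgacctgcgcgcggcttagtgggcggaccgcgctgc
Pdia6, chr12:17266339-17266588, plus strand: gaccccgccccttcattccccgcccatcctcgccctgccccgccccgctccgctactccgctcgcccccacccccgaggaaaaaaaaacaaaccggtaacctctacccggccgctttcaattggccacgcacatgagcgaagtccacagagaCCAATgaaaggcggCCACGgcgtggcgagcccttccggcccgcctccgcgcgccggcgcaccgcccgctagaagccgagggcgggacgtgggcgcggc
Sdf2l1, chr16:17132384-17132633, minus strand: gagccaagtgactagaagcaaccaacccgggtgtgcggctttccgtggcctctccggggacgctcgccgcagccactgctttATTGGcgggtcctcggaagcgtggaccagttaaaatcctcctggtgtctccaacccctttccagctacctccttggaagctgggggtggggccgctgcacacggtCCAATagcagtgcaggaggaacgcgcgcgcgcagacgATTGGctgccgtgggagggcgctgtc
Hsp90b1 carried 2 such elements, the first base of which lay 212 and 107 bases before the start, Pdia6 carried 1 at 98 bases before, and Sdf2l1 carried 3 CCAAT boxes and no match to the full element. The 300-base promoters (50 bases past the start included) were searched as well. In them, 6 of the 18 genes of the list with a promoter held the full element, against 37 of 27025 genes in all, 0.137%. The plain CCAAT box, which the element contains, was present in 83.3% of the list and 41.1% of all. Since the element is known from such genes, these shares of the list do not bear on the change with age. Of the risen genes with a promoter, 2 of 97 held the full element, and of the fallen genes 0 of 39. Among all tested genes with a promoter it was 22 of 11907, 0.185%. The CCAAT box was present in 38.1% of the risen genes. Whether the element had a part in the change was not tested.

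Immediate early genes, which switch on within minutes of a stimulus and of handling, were higher in part. Of 24, 23 were tested, 2 rose, 0 fell and the median was 0.44. Egr1, a zinc finger transcription factor, held 9.87, 4.38, 6.85 and 6.82 CPM at 8 weeks and 58.7, 22.9, 15.6 and 19.3 CPM at 10 weeks, with a log2 fold change of 2.06 ± 0.44 (SE, edgeR adjusted p = 0.0438). Library 1 of 10 weeks was far above the other libraries, though all 10-week libraries exceeded all 8-week libraries. Without that library the log2 fold change was 1.47, and Egr1 passed in 12 of 23 settings: it missed the adjusted p without any 1 of the 8-week libraries, without library 1 or 3 of 10 weeks and without library 2 or 3 of 12 weeks, up to an edgeR adjusted p of 0.13. Jund, a member of the AP-1 factors, rose from 16.9 to 19.5 CPM at 8 weeks to 22.4 to 27.4 CPM at 10 weeks, a log2 fold change of 0.51 ± 0.075 (SE, edgeR adjusted p = 0.00807). Fos had a change of 2.08 that did not pass (edgeR adjusted p = 0.0613), with 0.965 to 1.49 CPM at 8 weeks and 2.25 to 10.6 CPM at 10 weeks.

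A few genes outside the marker lists rose, among them genes of epithelia, and most of those named here were chosen after their values were seen. S100a6, a calcium-binding protein, held 12.1, 15.65, 10.6 and 12.2 CPM at 8 weeks and 25.3, 35.98, 40.3 and 16.8 CPM at 10 weeks. The ages were separate by a narrow margin, with library 4 of 10 weeks the lowest of its age and libraries 2 and 3 the highest. It rose 2.35-fold, by 1.23 ± 0.25 on the log2 scale (SE, edgeR adjusted p = 0.0366). S100a6 missed the adjusted p without any 1 library of 8 weeks, library 1, 2 or 3 of 10 weeks or library 3 of 12 weeks, up to an edgeR adjusted p of 0.123. The cell cycle inhibitor gene Cdkn2b rose by 1.52 and the chemokine gene Cxcl1 by 1.29. They passed in 11 and 12 of the 23 settings tried, and Cxcl1 was low, at 0.647 to 0.764 CPM at 8 weeks and 0.914 to 2.25 CPM at 10 weeks. Muc4 (2.68), a membrane mucin, Plet1 (0.99), Gsdmc2 (0.91), Gata3 (0.46), a transcription factor of the collecting system, and Cldn8 (0.41), a tight junction protein of the distal nephron, passed as well and were chosen after their values were seen. Muc4 was near the floor, with 0.0323 to 0.321 CPM at 8 weeks and 0.334 to 1.51 CPM at 10 weeks. Of the 23 settings, Muc4 passed in 13, Plet1 in 17, Gsdmc2 in 18, Gata3 in 10 and Cldn8 in 15.

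Of the marker lists of urothelium and principal cells, 0 members passed in edgeR's test. In the urothelium list all 6 members were higher by sign with a median of 0.69, 0 passed edgeR's adjusted p, and 4 had an unadjusted p under 0.05. Psca came closest, with 5.40 to 9.90 CPM at 8 weeks and 9.58 to 21.2 CPM at 10 weeks (1.12 ± 0.27, SE, edgeR adjusted p = 0.0588). The summed CPM of the list was 17.0 to 31.7 at 8 weeks, 29.1 to 41.0 at 10 weeks and 15.3 to 26.3 at 12 weeks. Of the 9 principal cell genes of the collecting duct, 8 were tested and 0 passed. Aqp2, the vasopressin-regulated water channel, held 83.9, 83.0, 54.6 and 51.8 CPM at 8 weeks and 112, 129, 153 and 91.4 CPM at 10 weeks (0.83 ± 0.19, SE, edgeR adjusted p = 0.054). Aqp4, the basolateral water channel, changed by 0.95 ± 0.27 (SE, edgeR adjusted p = 0.0954), and Scnn1a, a subunit of the sodium channel, by -0.24. The list's median was 0.15. Its summed CPM was 574 to 669 at 8 weeks, 700 to 808 at 10 weeks and 586 to 661 at 12 weeks. The part of cell composition in the genes above was not tested.

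**Figure D4:**
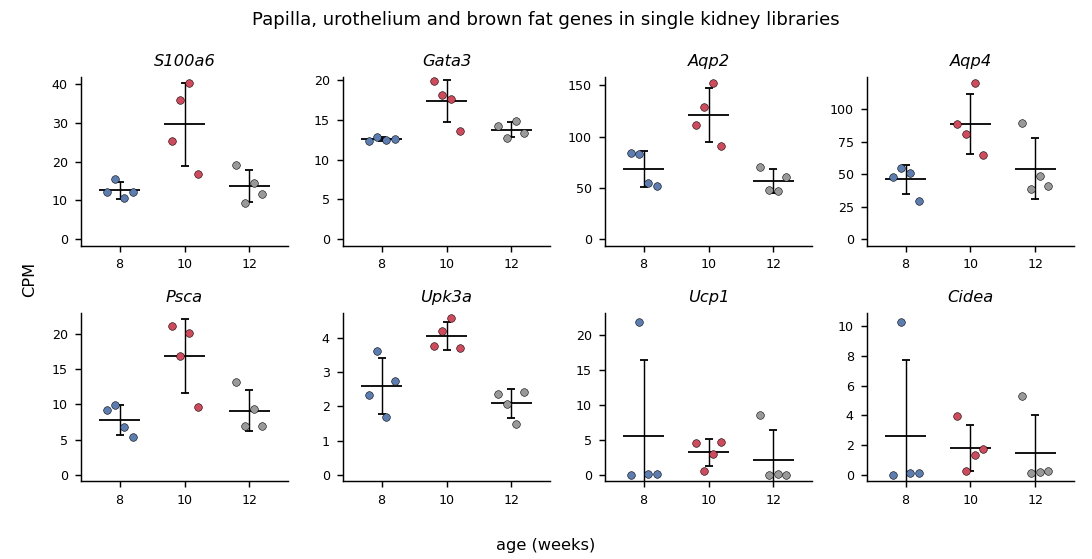
Level in CPM of genes known from collecting duct, urothelium or brown fat in each kidney library by age (points, with mean and SD, bars cut at the axis). The 10-week libraries are above the 8-week libraries for S100a6, Gata3, Aqp2 and Aqp4, and the brown fat genes Ucp1 and Cidea are highest in library 2 of 8 weeks.

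Nephron markers otherwise changed little. Of 15 proximal tubule genes of segments 1 and 2, 11 were lower by sign, 1 fell past the adjusted p and 0 rose. Slc4a4 (ENSMUSG00000060961, chr5:89034345-89387514), the sodium bicarbonate cotransporter of the basolateral membrane, averaged 1680 ± 39.02 CPM in the younger and 1360 ± 122 CPM in the older kidneys (SD, n = 4 each). That is a log2 fold change of -0.30 ± 0.065 (SE, edgeR adjusted p = 0.0426). Slc4a4 missed the adjusted p without any 1 library of 8 weeks and without library 1 or 3 of 10 weeks or library 2 or 3 of 12 weeks. Lists for segment 3, thick ascending limb, distal tubule, intercalated cells, podocytes, endothelium and mural cells had 0 members past the adjusted p, and their medians lay between -0.10 and 0.25. Slc10a2 (ENSMUSG00000023073, chr8:5133219-5155351), the sodium-dependent bile acid transporter, rose from 43.9, 46.9, 41.8 and 40.7 CPM to 63.5, 65.7, 60.2 and 65.2 CPM. With a log2 fold change of 0.56 ± 0.059 (SE, edgeR adjusted p = 0.000765) the ages were separate. Spink1, a trypsin inhibitor, rose from 312 to 349 CPM to 411 to 544 CPM (0.52 ± 0.080, SE, edgeR adjusted p = 0.0123), and Dio1, which activates thyroid hormone, rose by 0.73 and Tfrc, the transferrin receptor, by 0.67, these 3 being chosen after their values were seen. Dio1 passed narrowly (edgeR adjusted p = 0.04995) and in 10 of the 23 settings tried. Tfrc passed in 11 and overlapped between the ages, with 67.0 to 94.1 CPM at 8 weeks and 88.0 to 160 CPM at 10 weeks.

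The genes that fell were fewer and mostly of other functions. Hmox1 (ENSMUSG00000005413, chr8:75820241-75827217), heme oxygenase 1, held 94.3, 142, 76.9 and 112.96 CPM at 8 weeks and 34.5, 34.8, 35.6 and 24.6 CPM at 10 weeks. It was 3.29-fold lower without overlap, a log2 fold change of -1.72 ± 0.28 (SE, edgeR adjusted p = 0.0136), and the libraries of 12 weeks held 27.2, 30.8, 30.6 and 70.5 CPM. Hmox1 missed the adjusted p without library 3 of 10 weeks. Of the 12 tested genes in the list of Hmox1 and other targets of the stress factor NRF2, Hmox1 alone passed, and the median was 0.05. Plin5, which coats lipid droplets in oxidative tissue, fell by 1.31 on the log2 scale (SE 0.23, edgeR adjusted p = 0.0198), from 5.88 to 11.9 CPM to 2.56 to 4.44 CPM. Arrdc2, an arrestin-like gene chosen after its values were seen, changed by -1.34 with overlapping libraries. Myh14 (ENSMUSG00000030739, chr7:44255096-44320307), a non-muscle myosin of epithelia, held 79.1, 74.3, 76.6 and 75.5 CPM at 8 weeks and 51.6, 53.3, 49.5 and 59.0 CPM at 10 weeks. The ages were separate, with a log2 fold change of -0.52 ± 0.057 (SE, edgeR adjusted p = 0.00106).

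Other named genes that fell were Klf12 (-0.56), a transcriptional repressor, Sectm1b (-0.52), Shpk (-0.38), a sugar kinase, Cspg4 (-0.43), a proteoglycan of pericytes, Tob2 (-0.84), an antiproliferative gene, and Polr3e (-0.80). Tob2 (ENSMUSG00000048546, chr15:81730803-81744217) held 105, 134, 151 and 98.8 CPM at 8 weeks and 71.9, 75.2, 52.8 and 72.6 CPM at 10 weeks, and its libraries of 12 weeks held 58.4 to 84.8 CPM. Polr3e, a subunit of RNA polymerase III, held 111 to 146 CPM at 8 weeks and 57.5 to 84.2 CPM at 10 weeks. Polr3d, of the same enzyme and chosen after its values were seen, fell by 0.45 on the log2 scale (SE 0.089, edgeR adjusted p = 0.031). Ccnd1 (-0.54), a cyclin, and Lama1 (-0.57), a laminin, fell too and were chosen in the same way. So were 4 genes of lipid and sugar handling: Acox3 (-0.49), Slc25a42 (-0.51), which carries coenzyme A into mitochondria, Dgat2 (-0.43), which completes triglyceride synthesis, and Slc2a5 (-0.47), the fructose transporter.

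Fatty acid oxidation genes leaned the same way without passing. Of 27, 24 were lower by sign, 0 passed edgeR's adjusted p, 5 were lower and 0 higher at an unadjusted p under 0.05, and the median was -0.08. Cpt1a, which admits long-chain fatty acids to mitochondria, held 678 to 805 CPM at 8 weeks and 506 to 629 CPM at 10 weeks (-0.35 ± 0.083, SE, edgeR adjusted p = 0.0584), without overlap. Of the genes induced by glucocorticoids, 11 were tested, 9 were lower by sign, 0 passed, 5 were lower at an unadjusted p under 0.05, and the median was -0.72. Of 15 clock repressors and outputs, 13 were lower by sign, 0 passed, 9 were lower at an unadjusted p under 0.05 (7.69% of all genes tested were), and the median was -0.35. Per1, a clock repressor that glucocorticoids also induce and that is on both lists, held 77.0, 106, 96.5 and 91.2 CPM at 8 weeks and 44.1, 79.4, 38.97 and 63.7 CPM at 10 weeks (-0.72 ± 0.21, SE, edgeR adjusted p = 0.102). Library 2 of 10 weeks reached the 8-week range for Per1 and also for Cry1, Noct and Plk3. Of 7 clock activators and morning-phase genes, 3 were higher and 4 lower by sign, 0 passed edgeR's adjusted p and the median was -0.10. Bmal1 (1.64) and Npas2 (0.83) were higher at an unadjusted p under 0.05, and 2 others of that list were lower. The hour at which an animal was killed was not given, and its part in these lists was not tested.

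**Figure D5:**
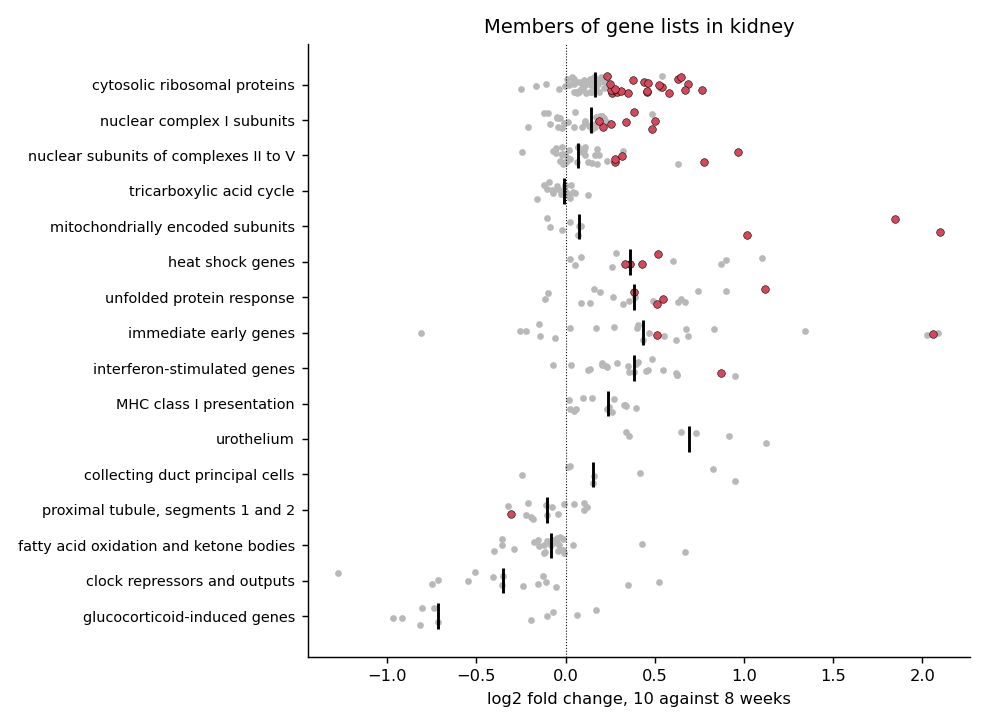
Log2 fold change at 10 against 8 weeks of the tested members of 16 gene lists (points, the black line gives the median). Red points are the members past the adjusted p. The medians run from 0.69 for urothelium to -0.72 for genes induced by glucocorticoids.

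Genes of the immune lists were mostly higher by sign, and 1 of them passed the test. The chemokine gene Cxcl1, given above, passed outside these lists. Of 24 interferon-stimulated genes, 23 were tested, 22 were higher by sign and the median was 0.38. At an unadjusted p under 0.05 in edgeR's test 11 were higher and 0 lower, beside 9.10% of all genes tested that were higher. Past the adjusted p 1 gene rose. That gene was Gbp2, a guanylate-binding protein, with 6.47 to 8.09 CPM at 8 weeks and 11.4 to 15.6 CPM at 10 weeks (0.87 ± 0.19, SE, edgeR adjusted p = 0.0499). All 14 genes of MHC class I presentation and all 8 of class II were higher by sign, with medians of 0.24 and 0.19 and 0 past edgeR's adjusted p, and 4 and 2 of them had an unadjusted p under 0.05. B and plasma cell genes summed to 10.0 to 19.8 CPM at 8 weeks and 9.91 to 25.9 CPM at 10 weeks. The list of T and natural killer cells had 8 of 16 genes tested and 0 past edgeR's adjusted p. Of these 8, 7 were higher by sign, 2 at an unadjusted p under 0.05, and the median was 0.54. All 14 tested macrophage genes were higher by sign, with a median of 0.19 and 0 at an unadjusted p under 0.05. Neutrophil genes such as S100a8, S100a9 and Ly6g were below the count minimum. Of 25 collagen and matrix genes Col15a1, of basement membranes, rose by 0.58 (SE 0.10, edgeR adjusted p = 0.0198) and 0 others passed. Col15a1 missed the adjusted p without library 3 or 4 of 8 weeks or library 1 or 3 of 10 weeks, and Gbp2 without any 1 library of 8 weeks, library 1, 2 or 3 of 10 weeks or library 3 of 12 weeks. In cholesterol synthesis Msmo1 rose by 0.55 (SE 0.093, edgeR adjusted p = 0.0168) and was alone among 23 genes, with 0 past without library 3 or 4 of 8 weeks or library 3 of 10 weeks.

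The study's text names 14 genes of the 12-week kidney, of which 12 were tested here, and it chose them on libraries of this series, so they are no independent evidence. Past the adjusted p at 10 against 8 weeks was Hmox1 alone. Ddit4, a stress-induced inhibitor of growth signalling, changed by -0.97 ± 0.22 (SE, edgeR adjusted p = 0.051), from 50.5 to 70.1 CPM to 23.3 to 38.7 CPM without overlap. Plk3 (-1.30), Noct (-1.28) and Cry1 (-0.90) overlapped between the ages. Aldh1a3 (2.14), Acsbg1 (1.15), Neurog2 (0.61), Cyp4a12a (0.42) and Lipo2 (0.31) had positive and Synpr (-3.35) and Cidea (-0.52) negative log2 fold changes, none of which passed edgeR's adjusted p, the lowest of these being 0.14.

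Mitochondrially encoded genes need a separate reading, since bases 6390 to 11042 of the mitochondrial genome have a nuclear copy at chr1:24650616-24655269 with 99.9% identity, and pairs that align equally well to both places are not counted. Of the 13 protein genes 10 were tested, 3 rose past the adjusted p, 0 fell, and the median was 0.07. The 3 genes were mt-Co2, mt-Co3 and mt-Atp6, which lie within the copied stretch. mt-Co2 (ENSMUSG00000064354, chrM:7013-7696) held 4.13, 4.14, 4.66 and 4.91 CPM at 8 weeks, 16.6, 21.6, 19.9 and 18.8 CPM at 10 weeks and 14.1 to 17.8 CPM at 12 weeks. It had the lowest p of all genes (2.1 ± 0.11, SE, edgeR adjusted p = 3.02e-07). mt-Nd1, outside the stretch, held 9360 to 12230 CPM at 8 weeks and 10800 to 12190 CPM at 10 weeks (0.09 ± 0.10, SE, edgeR adjusted p = 0.726). The annotated pseudogenes of the copy, Gm28661, Gm28437 and Gm29216, rose by 2.22, 1.02 and 0.87. The genes of the stretch are therefore counted only through the few pairs that tell the copies apart, and their values are uncertain as levels of mitochondrial RNA.

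The share of all counted pairs on the 13 mitochondrially encoded genes was 10.0% ± 0.688 at 8 weeks and 10.0% ± 0.443 at 10 weeks (SD, n = 4, exact permutation p = 0.943, two-sided). Outside the copied stretch the shares were 5.28% ± 0.445 and 5.42% ± 0.308 (SD, n = 4, exact permutation p = 0.657, two-sided). In heart the changes of mt-Co2, mt-Co3 and mt-Atp6 were -0.92, -1.15 and -0.78, and the interaction term differed past the adjusted p from kidney for all 3, with differences of 3.00 ± 0.55, 2.97 ± 0.58 and 1.77 ± 0.39 (SE, edgeR adjusted p = 0.0118, 0.0174 and 0.0423). Over all 19717 genes of that model the change differed between kidney and heart for 39 genes, 10 with the kidney change above (0.0507%) and 29 below (0.147%), and between kidney and liver for 11 genes, 5 above (0.0254%) and 6 below (0.0304%). A kidney change below that of heart is not always a fall in kidney. Alb changed by 10.5 in heart and -0.15 in kidney, while Polr3e changed by 0.012 in heart and -0.80 in kidney. Other plasma protein genes of liver among the 29 also rose in heart, Gc by 5.59, Kng1 by 5.12, Cpn1 by 5.11 and Ttr by 3.26. Whether heart libraries held RNA of other tissue was not tested. The counts of genes that differ between kidney and heart are therefore uncertain as differences in age change.

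Several risen rows are pseudogenes or copies of ribosomal and other short genes: Gm11263 (2.96), Tpt1-ps5 (2.14), Rps27rt (1.45), Rpsa-ps10 (1.23) and Gm7536 (1.02). Their levels were at most 2.41 CPM on average at 10 weeks, and pairs from a parent gene could be counted on them, which was not measured, so these changes are uncertain. Gm20400 (-1.10), a noncoding RNA, and Gm36210 (-0.87) fell.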

How the data were processed

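Poly(A) RNA of heart, kidney and liver was sequenced as paired reads, 4 libraries per tissue and age. The authors trimmed reads with cutadapt 4.2 after FastQC 0.11.9 and aligned them with STAR 2.7.11b to GRCm39 with Ensembl 113 (tools as listed in the submitters' processing notes). The deposited values are raw counts of uniquely aligned pairs per gene, of which the unstranded column was used because the 2 strand columns held near equal counts. Reads of a gene and of an antisense partner are therefore not told apart. The 4 summary lines of each file stayed out of library sizes. Symbols came from GENCODE vM39 (78168 of 78239 rows matched).

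Genes with a mean count of at least 10 at 8 or 10 weeks were tested with edgeR 4.0.16 (R 4.3.3): TMM factors and a quasi-likelihood F test over the 12 kidney libraries, whose 3 ages share the estimate of spread, with Benjamini-Hochberg adjustment over all 17350 genes. SE is the absolute log2 fold change over the root of F. On simulated counts for these genes the test found 71% of genes changed 1.5-fold, 90% at 2-fold and 98% at 3-fold. The changed genes of the simulation all had a mean over 1 CPM, and counts were drawn for each gene on its own. These shares therefore do not hold for genes of lower level or for spread that many genes of a library share. DESeq2 1.42.0 and limma 3.58.1 were alternatives. The named genes were those called without overlap with at least 1 CPM (up to 15 per direction by fold change) and the 10 of lowest p per direction. Up to 4 risen or fallen members of each list and the genes named in the study's text were named as well. For the lists without a risen or fallen member, 2 abundant genes each are given as a range. Other genes were added after their values were seen, among them Aqp2, Aqp4, Fos, Hspa5 and Per1, not all marked where they appear. Hspa1a, Hspa1b, Ddit3, Herpud1, Ndufs1 and Ndufv1 did not pass and were also picked outside these rules. The members and lists were chosen with earlier results of these data known. The p-values measure the spread between these libraries, and same-numbered libraries are not stated to share an animal. Some single genes are not reported here.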

Additional observations from a re-analysis of the deposited data

Results flagged for a closer look

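In 22 of the 224 groups of 4 libraries (112 genes at 8 and at 10 weeks), the highest or lowest library lay far from the other 3, by Dixon's criterion, which chance meets in about 1 in 20 groups. Levels are in CPM. At 10 weeks, library 1 was high for Gm28661 (93.3, others 30.1 to 35.3), Egr1 (58.7, others 15.6 to 22.9) and Cyp4a14 (545, others 12.0 to 24.02). Library 2 of 10 weeks was low for Sdf2l1 (9.05, others 12.2 to 12.5). The same library was high for Gm28437 (4.64), Klf12 (25.3, others 19.7), Cry1 (12.5, others 4.26 to 4.94), Noct (44.1, others 17.1 to 20.2) and Arrdc2 (19.1, others 9.75 to 11.01). Library 3 of 10 weeks was low for Tob2 (52.8) and Ccnd1 (135) and high for Psmb6 (79.6), and library 4 of 10 weeks was low for Hmox1 (24.6, others 34.5 to 35.6).

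At 8 weeks, library 2 was high for the brown fat genes Ucp1 (21.8, others 0.0459 to 0.129) and Cidea (10.3, others 0 to 0.097), and for Col15a1 (15.3) and Hyou1 (136). Library 1 of 8 weeks was low for Rpl38 (38.7, others 48.7 to 50.4), library 3 was high for Synpr (1.78) and Acox3 (379), and library 4 was high for Cyp4a14 (183, others 11.7 to 17.9) and low for Gsdmc2 (3.52).

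The change from 8 to 10 weeks differed between kidney and heart for 7 of the named genes, by the interaction term of the edgeR model with its adjusted p. Kidney minus heart was 4.94 ± 0.60 for Gm11263 (SE, edgeR adjusted p = 1.54e-05), 4.61 ± 0.61 for Gm28661 (edgeR adjusted p = 6.17e-05), 3.00 ± 0.55 for mt-Co2 (edgeR adjusted p = 0.0118) and 2.97 ± 0.58 for mt-Co3 (edgeR adjusted p = 0.0174). It was 1.77 ± 0.39 for mt-Atp6 and 1.65 ± 0.37 for Gm29216 (both edgeR adjusted p = 0.0423), and -0.83 ± 0.19 for Polr3e (edgeR adjusted p = 0.0489). mt-Co2, mt-Co3, mt-Atp6, Gm28661 and Gm29216 lie in or across the end of the stretch that mitochondrial and nuclear genome share, which makes their counts uncertain, and Gm11263 is annotated as a processed pseudogene.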

How the results depend on the processing

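Against 130 higher and 58 lower genes past the adjusted p and 20 and 6 called, DESeq2 gave 402 and 265 (61 and 18 called), no filter on low counts 564 and 441 (126 and 39), the 8 libraries of 8 and 10 weeks alone 84 and 33 (12 and 3), and removal of the length trend, chosen after seeing the data, 69 and 34 (10 and 6). Leaving out 1 library gave 21 to 253 higher and 2 to 109 lower, with 3 to 63 and 0 to 15 called, and the lowest counts past the adjusted p came without library 3 of 10 weeks. Same-numbered libraries did not deviate together (correlations of -0.0047, 0.039, -0.0028 and -0.046), and the replicate block gave 137 and 68 (32 and 5 called). The kidney and heart difference held for 14 to 41 genes with 1 library left out, and the kidney and liver difference, 11 genes, for 0 to 11, for 4 by limma-voom and for 1 with 16 libraries. Over 112 named genes and 23 settings, 2001 of 2573 values kept direction and side of the threshold, 510 were weaker, 53 stronger and 9 reversed. The log2 fold change of Cidea turned to 2.43 by limma-voom and 0.37 with the block (-1.20 to 4.58 with 1 library left out), and that of Ucp1 to 2.88 and 0.84 (-1.19 to 5.203), the highest without library 2 of 8 weeks. Lipo2 ranged from -0.068 to 0.73, with -0.03 without library 4 of 8 weeks, and Cyp4a14 from -1.76 to 3.37. The share of counts on mitochondrially encoded protein genes differed by 0.0272 percentage points, which ranged from -0.265 to 0.232 with 1 library left out and turned negative without library 1 or 2 of either age. The cause of these shifts was not tested.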

Other observations

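Some genes of the proteasome and the spliceosome and a gene of complex III assembly were also among the risen ones. Those named here were chosen after their values were seen, and the other members of these groups were not counted. Of the 23 settings tried, Psma2 passed in 4, Psma4 in 18, Psmb6 in 14, Snrpe in 17, Snrpg in 13 and Uqcc2 in 22. Psma2, Psma4 and Psmb6, subunits of the proteasome core, rose by 0.23, 0.24 and 0.23 on the log2 scale, with edgeR adjusted p of 0.0499, 0.0253 and 0.0286 and without overlap between the ages. Psmb6 averaged 66.3 ± 1.59 CPM in the younger and 77.6 ± 1.31 CPM in the older kidneys (SD, n = 4 each). Snrpe and Snrpg, Sm proteins of the spliceosome, rose by 0.55 and 0.58 (edgeR adjusted p = 0.0286 and 0.0405). Uqcc2, an assembly factor of respiratory complex III, went from 3.59 ± 0.177 to 6.10 ± 0.539 CPM (SD, n = 4 each), a log2 fold change of 0.76 ± 0.12 (SE, edgeR adjusted p = 0.011).

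Of the cell proliferation list 32 genes were tested, 16 were higher and 16 lower by sign, and 0 passed edgeR's adjusted p, with 2 higher and 1 lower at an unadjusted p under 0.05. Male-biased kidney genes, 12 in all, had a median of 0.10 and 0 past edgeR's adjusted p, with 2 higher and 1 lower at an unadjusted p under 0.05.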
